A study of Bos taurus with 30 samples.

Results

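The 200 transcripts with the least variable levels in the cervix of 30 Limousin heifers are described here as candidate reference transcripts across 6 stages around oestrus. Counts of each heifer were divided by that library's total and expressed per 1000000 counts (CPM). Of 28054 Ensembl bovine transcript IDs, 10640 had a mean of 10 to under 1000 CPM over the 30 heifers, and the members are the 200 of these with the smallest standard deviation (SD) of log2(CPM + 1). The level of every heifer at every stage entered that choice, so the levels below describe the members and are no test of their stability.

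All heifers had carried a vaginal controlled internal drug release device (CIDR, 1.94 g progesterone) for 8 days and had received a prostaglandin F2α analogue (0.5 mg) 1 day before it was taken out. Cervix was collected from 6 heifers slaughtered 12 h after the device came out (CIDR+12h), 6 at 24 h (CIDR+24h), 4 at the onset of oestrus (Oestrus), 4 at 12 h after onset (Oestrus+12h), 5 at 48 h after onset (Oestrus+48h) and 5 on day 7 (Luteal). These numbers follow the label of each sample, while the protocol text has 5 and 4 heifers at 12 h and 48 h after onset. In 3 heifers, Oestrus replicates 3 and 4 and CIDR+12h replicate 5, the animal's number starts with 2 digits and in all others with 1, and some results are also given without these 3. Each heifer gave 1 library of 5434853 to 19628122 counts, and no untreated heifer was among them, so every stage shares the hormone treatment.

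A reference transcript is one whose level is taken as constant, so that the amounts of other transcripts can be expressed relative to it. Such transcripts are usually sought among genes for basic cell functions, and their constancy has to be shown anew in a tissue that remodels. The cervix is such a tissue: under oestrogen at oestrus its epithelium secretes fluid mucus and its connective tissue softens, and under progesterone in the luteal phase the mucus thickens and the canal closes. In RNA from whole tissue, fewer cells of a type and less RNA per cell cannot be told apart.

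None of the 28054 IDs was found in the reference name table, so the members carry Ensembl transcript IDs alone. No gene function, pathway, promoter or protein is given for them, and the tissue label was not checked against cell type markers. A CPM value is not corrected for transcript length, so a higher CPM means more reads and not necessarily more molecules.

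The members had a median SD of 0.196 on the log2 scale (0.117 to 0.218), against a median of 0.462 over all 10640 transcripts of the abundance window. Between the lowest and the highest of 30 heifers, the level of a member differed 1.74-fold at the median and 1.43-fold to 2.41-fold over the 200. In 193 of the 200 the highest heifer had under 2 times the CPM of the lowest, and 552 of the 10640 window transcripts (5.19%) met that limit. Of the 6000 member values, 69.7% lay within 0.2 of the member's own mean on the log2 scale and 99.5% within 0.5, and the largest deviation was 0.812.

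**Figure D1:**
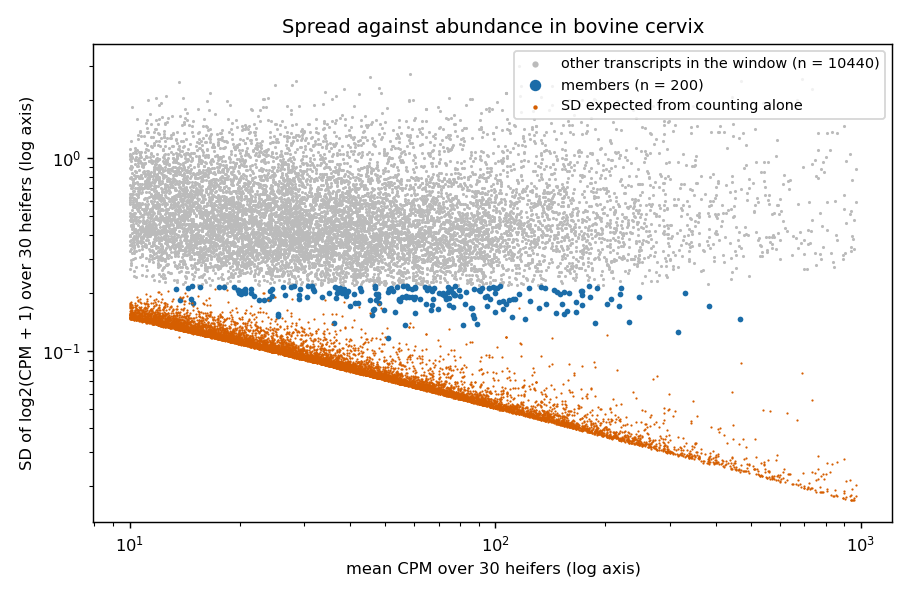
Each point is 1 transcript of the abundance window, by its mean CPM (horizontal, log axis) and its SD of log2(CPM + 1) over 30 heifers (vertical, log axis); blue points are the 200 members, grey points the other 10440 and orange points the SD that counting alone would give at the heifers' counts. The members form the lower edge of the cloud, at SDs of 0.117 to 0.218, and lie above the orange points.

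ENSBTAT00000055730 had the smallest SD of all, 0.117, at a mean of 50.7 CPM. It measured 42.8 to 57.3 CPM at CIDR+12h (median 50.1, n = 6) and 46.4 to 54.9 CPM at CIDR+24h (median 53.3, n = 6). The Oestrus heifers had 55.9, 48.8, 51.7 and 47.7 CPM, and the Oestrus+12h heifers 54.6, 49.2, 42.1 and 47.2 CPM. These ranges overlap, and the low value of 42.1 CPM at Oestrus+12h was the lowest of the 30 heifers. At Oestrus+48h it had 53.2, 49.9, 50.7, 60.2 and 46.8 CPM, and at Luteal 51.8, 48.2, 51.8, 52 and 50 CPM. The Luteal heifers were thus the closest together, with 50.8 ± 1.63 CPM (SD, n = 5), while 60.2 CPM in Oestrus+48h replicate 4 was the highest of all. Its 6 stage means lay between 48.3 and 52.2 CPM.

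ENSBTAT00000014704 followed with an SD of 0.126 at a higher mean level of 316 CPM. It had 286 to 346 CPM at CIDR+12h (median 310, n = 6) and 279 to 369 CPM at CIDR+24h (median 303, n = 6). At Oestrus the values were 311, 340, 323 and 385 CPM, and at Oestrus+12h 342, 331, 266 and 343 CPM. The third Oestrus+12h heifer was the lowest of the 30 and the fourth Oestrus heifer the highest. At Oestrus+48h the values were 323, 349, 302, 312 and 313 CPM, and at Luteal 311, 343, 271, 288 and 308 CPM. All stages overlapped, and the stage means ran from 304 ± 27 CPM at Luteal (SD, n = 5) to 340 ± 32.3 CPM at Oestrus (n = 4).

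The most abundant member, ENSBTAT00000045065, had rank 9 by SD, with 467 CPM on average and 383 to 559 CPM over the 30 heifers. Its stage means were lowest at Luteal, 449 ± 32.8 CPM (SD, n = 5), and highest at Oestrus+48h, 492.6 ± 67.1 CPM (n = 5), with overlapping heifers. The least abundant member, ENSBTAT00000043725, had 13.4 CPM on average and 10.3 to 19.1 CPM over the heifers, on counts of 65 or more. Its spread was wider, with an SD of 0.211, and its fewer counts give it less precision than the other named members.

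**Figure D2:**
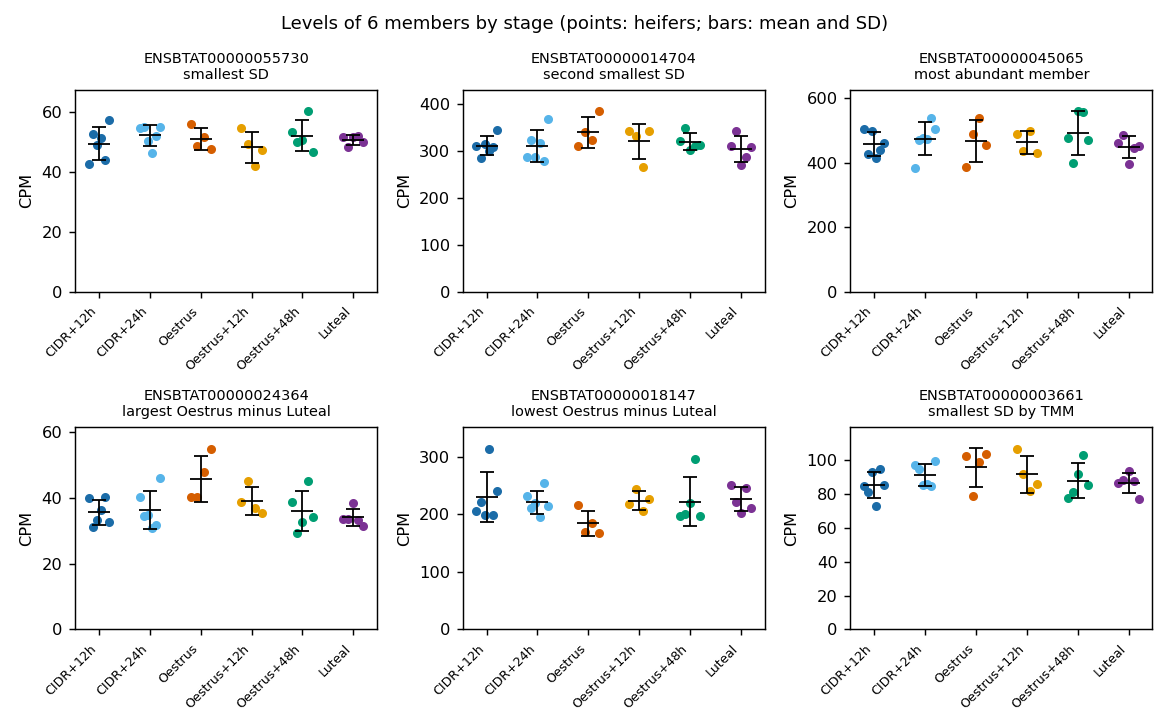
CPM (vertical, from 0) of 6 members in each heifer (points), with the mean and SD of each of the 6 stages (bars; n = 6, 6, 4, 4, 5 and 5). The top row holds the members with the 2 smallest SDs and the most abundant one, whose stages overlap. ENSBTAT00000024364, named for the largest difference of Oestrus from Luteal, has its highest stage mean at Oestrus. By library totals its Oestrus heifers, at 40.2 to 54.9 CPM, lie above the Luteal heifers at 31.5 to 38.3 CPM.

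At the threshold itself no gap separated members from other transcripts. The last 2 members by rank, ENSBTAT00000048851 and ENSBTAT00000020021, had SDs of 0.21804 and 0.21805, and the next 2 transcripts, ENSBTAT00000032645 and ENSBTAT00000015026, had 0.21835 and 0.21845. ENSBTAT00000020021 measured 59.7 to 106 CPM over the heifers and ENSBTAT00000032645 measured 43.8 to 86 CPM. The next 200 transcripts by rank had a median SD of 0.229, and a median of 1.93-fold between their lowest and highest heifer.

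Members came from the middle of the abundance window more often than from its ends. They made up 13 of 2824 transcripts at 10 to under 20 CPM (0.46%), 61 of 4016 at 20 to under 50 CPM (1.52%), 78 of 2079 at 50 to under 100 CPM (3.75%), 37 of 1078 at 100 to under 200 CPM (3.43%) and 11 of 643 from 200 CPM upwards (1.71%). The median member had 61.4 CPM (13.4 to 467), against 34.7 CPM over the window. Counting alone would give an SD of 0.133 to the median transcript at 10 to under 20 CPM and 0.0322 to that from 200 CPM upwards. The share from counting is thus nearer to the members' limit of 0.218 in low transcripts.

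No member was as constant as counting alone would allow. The variance of a member over heifers was 8.81 times its counting variance at the median and 2.08 to 49.8 times over the 200, against a median of 30.6 times over the window. The ratio was largest in the abundant members, with a median of 32.9 for the 11 from 200 CPM upwards. It was 3.13 for the 13 under 20 CPM. Over the window the medians of these classes were 282 and 15.7. The higher ratio does not mean a wider spread, as the members' median SD was 0.176 from 200 CPM upwards and 0.211 under 20 CPM. In ENSBTAT00000055730 the observed SD of 0.117 compared with 0.0698 from counting. In ENSBTAT00000014704 the values were 0.126 and 0.0285. These counting values treat reads as independent and cover counting error only.

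The share of a member's variance over heifers that lay between stages was 18.2% at the median (1.61% to 49.3%), and 20.6% in the median window transcript. With 6 stages in 30 heifers, a share of 17.2% is expected where stage has no effect, so nothing is read from the median. The 6 stage means of a member spanned 0.231 at the median on the log2 scale (0.076 to 0.408), and in 64 members they spanned under 0.2. Within a stage, the median SD of the members ran from 0.157 at Oestrus (n = 4) to 0.193 at Oestrus+48h (n = 5). Over the whole window the within-stage medians ran from 0.364 at Oestrus+12h to 0.466 at CIDR+24h.

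With CPM by library totals, the highest stage mean of a member was most often at Oestrus (69 members), CIDR+24h (58) or Oestrus+48h (51), and seldom at Oestrus+12h (14), Luteal (5) or CIDR+12h (3). The lowest was at Luteal in 54 members, Oestrus+12h in 49, CIDR+24h in 31, Oestrus in 24, Oestrus+48h in 22 and CIDR+12h in 20. As shares, 34.5% of members had their highest mean at Oestrus (45.7% of the window), 29% at CIDR+24h (21.3%), 25.5% at Oestrus+48h (13.1%), 7% at Oestrus+12h (11.2%), 2.5% at Luteal (4.11%) and 1.5% at CIDR+12h (4.46%). The lowest mean was at Luteal in 27% (19.2% of the window), Oestrus+12h in 24.5% (11.3%), CIDR+24h in 15.5% (28%), Oestrus in 12% (11.5%), Oestrus+48h in 11% (16.6%) and CIDR+12h in 10% (13.3%). On the log2 scale the median member deviated from the mean of the 5 other stages by 0.0671 at Oestrus and by -0.0544 at Luteal, where the median window transcript deviated by 0.211 and -0.0813.

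The order of the stages was another under the other 2 scalings. The same 200 were also scaled by TMM, an alternative added after seeing the data. Of these, 105 (52.5%) had their highest mean at Oestrus+48h, against 24.7% of the window. The highest was at CIDR+24h in 57 (28.5%, window 26.8%) and at Oestrus in 1 (0.5%, window 20.2%). The lowest was at Oestrus in 134 (67%, window 28.3%). With DESeq2 size factors the highest mean was at Oestrus+48h in 84 members (42%, window 21.7%) and at Oestrus in 2 (1%, window 19.7%). The lowest was at Oestrus in 142 (71%, window 29.2%). The median deviation at Oestrus was then -0.198 with TMM and -0.201 with DESeq2 size factors, and at Luteal 0.0433 and 0.034. The median window transcript deviated by -0.0489 and -0.0514 at Oestrus, and by 0.0148 and 0.0054 at Luteal. The log2 TMM factor, by which all transcripts of a heifer are divided, averaged 0.239 at Oestrus and -0.0696 at Luteal. Members were chosen for a small spread by library totals. Their low place at Oestrus by TMM therefore follows in part from that choice, and nothing is read from it.

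Differences among the 6 stages were tested for all transcripts in 1 edgeR quasi-likelihood fit scaled by trimmed mean of M values (TMM), with Benjamini-Hochberg adjustment. All 200 members passed its filter on low counts. It called 39 of 16940 transcripts (0.23%) and 0 of the 200 members, with 14 members and 10.9% of all transcripts at an unadjusted p under 0.05. DESeq2 called 292 of 16931 (1.72%) and again 0 members, of which 32 had an unadjusted p under 0.05 (16.4% of all transcripts). Between Oestrus and Luteal, edgeR called 0 of 16940 (0.0%) and 0 members, with 20 members and 7.24% of all transcripts at an unadjusted p under 0.05. DESeq2 called 11 of 16275 (0.0676%) and 0 members, with 35 members and 9.36% of all transcripts at an unadjusted p under 0.05. Since members were taken for a small spread over the same heifers, nothing is read from these counts. The unadjusted member counts turned on single heifers, and the counts over all transcripts, given in brackets, also changed. In edgeR's 6-stage test the fewest members, 1, came without Oestrus replicate 4 (1284 of 17124) or CIDR+24h replicate 5 (2388 of 16948). The most, 31, came without Oestrus replicate 2 (2174 of 17126). There were 0 without the 3 heifers with 2-digit numbers (1486 of 17355). Between Oestrus and Luteal the members ranged from 4 without Oestrus replicate 4 (489 of 17124) to 56 without Luteal replicate 3 (2324 of 16903). Without the 3 heifers with 2-digit numbers, the Oestrus and Luteal comparison had 1 member and 273 of 17355 transcripts at an unadjusted p under 0.05 in edgeR.

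The 2 members with the largest edgeR log2 difference of Oestrus from Luteal were ENSBTAT00000024364 (0.12 ± 0.127, SE) and ENSBTAT00000024595 (0.06 ± 0.162), given without a test. These differences are scaled by TMM, while the CPM values that follow are by library totals, which give differences of 0.41 and 0.36. ENSBTAT00000024364 had 40.2, 40.3, 47.6 and 54.9 CPM in the Oestrus heifers and 33.5, 33.6, 38.3, 33.1 and 31.5 CPM in the Luteal heifers. These groups did not overlap by library totals, and the 2 highest values came from Oestrus replicates 3 and 4, both with 2-digit numbers. The transcript was named for its difference between these same heifers, so nothing is read from the gap. ENSBTAT00000024595 had 23.9, 21.9, 30.1 and 23.2 CPM at Oestrus against 18.9, 23.2, 19.2, 18.9 and 15.5 CPM at Luteal, with overlap at the second Luteal heifer.

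The 2 lowest differences were those of ENSBTAT00000018147 (-0.61 ± 0.188, SE) and ENSBTAT00000043725 (-0.57 ± 0.199), again scaled by TMM. By library totals, as in the CPM values that follow, the differences were -0.30 and -0.25. ENSBTAT00000018147 had 215, 169, 186 and 167 CPM at Oestrus and 251, 222, 202, 245 and 212 CPM at Luteal. The first Oestrus heifer lay above 2 of the Luteal heifers, and the other Oestrus heifers lay below all 5. ENSBTAT00000043725 had 13.1, 12, 11.3 and 11.9 CPM at Oestrus and 14.6, 13.3, 19.1, 13.5 and 13 CPM at Luteal, so that the groups met at about 13 CPM.

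Averaged over the 200 members by library totals, a heifer deviated from the mean heifer by -0.129 to 0.138 on the log2 scale, that is 0.915-fold to 1.1-fold. The lowest was CIDR+12h replicate 2 and the highest Oestrus+48h replicate 4. Before oestrus the mean and SD of this deviation were -0.0248 ± 0.0833 in the 6 CIDR+12h heifers and 0.0291 ± 0.0739 in the 6 CIDR+24h heifers. The 4 Oestrus heifers had 0.0513 ± 0.0592, the 4 Oestrus+12h heifers -0.0334 ± 0.0787, the 5 Oestrus+48h heifers 0.0292 ± 0.0989 and the 5 Luteal heifers -0.0487 ± 0.0495. The spread between heifers of a stage was as large as or larger than the distance of each stage mean from 0. Together the members took 1.47% to 1.81% of a library.

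**Figure D3:**
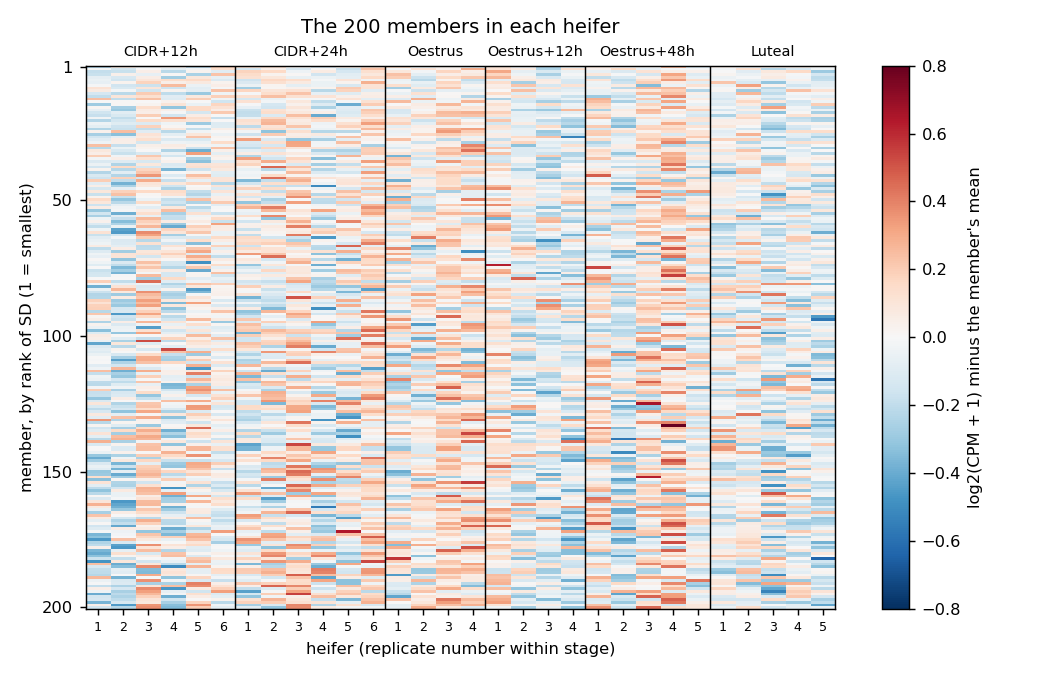
Deviation of each member (rows, by rank of SD) from its own mean in each of 30 heifers (columns, by stage), as log2(CPM + 1); red is higher and blue lower. Column means shift, such as Oestrus+48h replicate 4 upwards (0.138 on average) and CIDR+12h replicate 2 downwards (-0.129 on average). The members of these heifers spread around that mean with SDs of 0.21 and 0.167, wider than the shift.

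The members' mean deviation moved with the makeup of the library. The 10 most abundant transcripts took 6.87% to 23.6% of a library, and the deviation was lower where that share was higher (Pearson r = -0.68, Spearman rho = -0.68, n = 30 heifers). The relation was -0.65 without the 2 heifers farthest from the median share, -0.71 after the stage means were removed and -0.63 without the 3 heifers with 2-digit numbers. It is not shown to be particular to the members. In CIDR+24h replicate 4, with the highest share, the members deviated by -0.0645 and the window by -0.293. In Oestrus replicate 4, with the lowest share, the values were 0.0766 and 0.238. No coefficient is given for the window. With the TMM factor, a scaling factor taken from the bulk of transcripts, the members' deviation had r = 0.50 and rho = 0.46, and with the library total r = -0.10 and rho = -0.28. All these measures share the library total, and the members were chosen on the same libraries, so the coefficients describe these 30 libraries, and the part of library makeup in the members' levels was not tested.

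**Figure D4:**
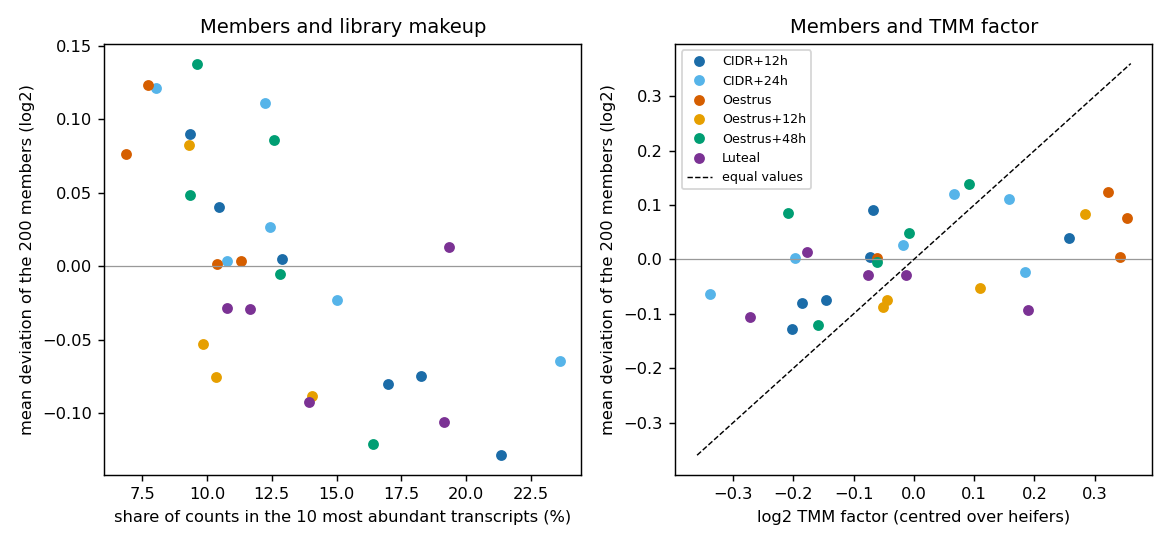
Mean deviation of the 200 members in each heifer (vertical, log2) against the share of counts in the 10 most abundant transcripts (left, %) and against the log2 TMM factor (right), with heifers coloured by stage. The members spread over -0.129 to 0.138 while the TMM factors spread over -0.338 to 0.353, so points on the right lie off the dashed line of equal values.

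As a scale for the libraries, the members differed from TMM. They were chosen for small changes in CPM by library totals, which keeps their mean deviation small. A difference from TMM thus follows in part from the choice. Per heifer, the factor taken from the members minus the log2 TMM factor ran from -0.338 in Oestrus replicate 1 to 0.294 in Oestrus+48h replicate 3. It averaged -0.188 ± 0.177 at Oestrus (SD, n = 4) and 0.0982 ± 0.11 at Oestrus+48h (n = 5). Size factors of the DESeq2 kind gave -0.326 to 0.306. Scaling the edgeR fit by the members in place of TMM gave 46 calls in the 6-stage test in place of 39.

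Which transcripts were the most constant depended on that scale. When CPM was scaled by TMM, 43 of the 200 members were again among the 200 with the smallest SD, and with DESeq2 size factors 45 were. Under all 3 scalings 42 members were kept, with a mean of 14.7 to 220 CPM. Under TMM the members had a median SD of 0.233 (0.126 to 0.341) and 128 of the 200 were within the first 1000 ranks, while the 200 chosen by TMM had a limit of 0.199. Of the 50 members with the smallest SD by library totals, 13 were among the 42.

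ENSBTAT00000003661, chosen after its values were seen, had the smallest SD of all transcripts under TMM (0.126) and under DESeq2 size factors (0.126) and had rank 5 by library totals (0.138). It measured 72.9 to 94.8 CPM at CIDR+12h (median 84.6, n = 6) and 84.6 to 99.2 CPM at CIDR+24h (median 90.2, n = 6). At Oestrus the values were 102, 78.7, 98.7 and 103 CPM, and at Oestrus+12h 107, 91.9, 81.7 and 85.6 CPM. These ranges overlap, with the first Oestrus+12h heifer the highest of the 30. At Oestrus+48h it had 77.3, 81.3, 91.7, 103 and 85.2 CPM, and at Luteal 86.1, 88.2, 93.2, 87.6 and 76.9 CPM. In contrast, ENSBTAT00000055730 had an SD of 0.195 and rank 170 under TMM, and ENSBTAT00000014704 an SD of 0.206 and rank 261. The most abundant member, ENSBTAT00000045065, had rank 1164 and an SD of 0.261.

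**Figure D5:**
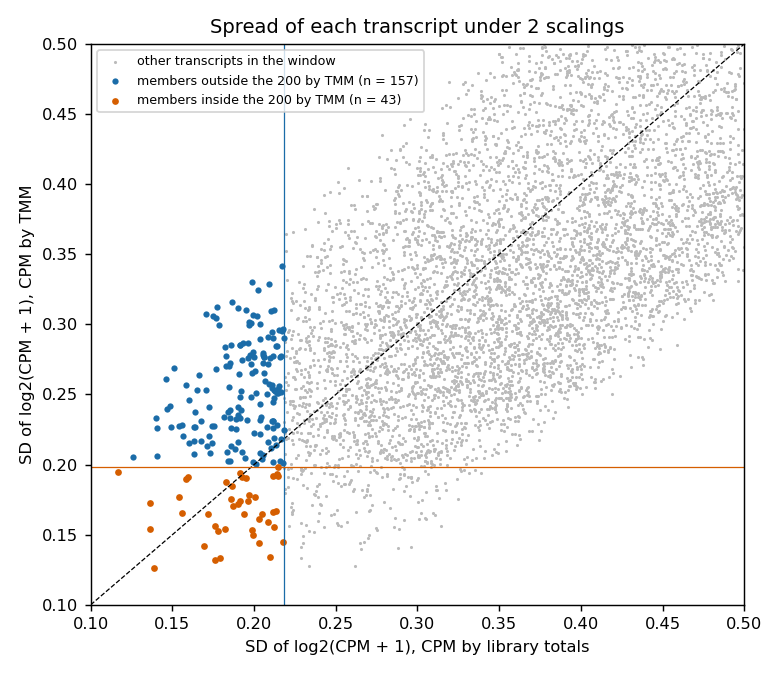
SD of log2(CPM + 1) over 30 heifers of each window transcript with CPM by library totals (horizontal) and by TMM (vertical), shown up to 0.5; lines mark the largest SD of the members kept by each choice and the dashed line equal SDs. Orange points are the 43 members among the 200 smallest under both, and blue points the 157 members that are not.

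The direction of the members between Oestrus and Luteal turned with the scale. Members were chosen on levels by library totals, and the TMM factor differed between these stages, so the turn follows in part from the choice. By library totals, 156 of the 200 had a higher mean at Oestrus, with a median log2 difference of 0.11, beside 74.4% of all 16940 transcripts and a median of 0.26. By TMM, 9 of the 200 were higher at Oestrus, with a median of -0.19, beside 48.2% of all transcripts and a median of -0.01. DESeq2 size factors gave 9 members higher and a median of -0.18. Without the 2 Oestrus heifers with 2-digit numbers, the medians were 0.07 by totals and -0.14 by TMM. ENSBTAT00000024364 was among the few higher at Oestrus by either scale, by 0.41 with totals and 0.11 with TMM, and ENSBTAT00000055730 went from 0.00389 to -0.30.

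Heifers that had no part in the choice gave the same measure apart from the rule. The 200 were chosen again on 29 heifers, and the level in the heifer left out was set against the mean of the 29. The median absolute deviation over the 200 was 0.152 in the median heifer (0.0882 to 0.251), against 0.352 (0.187 to 0.492) over the window. It was lower than in the window in 30 of 30 heifers. The transcripts ranked next to the members were not compared in this way. Of the 200, at most 1.5% deviated by over 1 on the log2 scale, in Oestrus+48h replicate 4, while 2.9% to 18.6% of the window did. The lowest deviation, 0.0882, was that of CIDR+12h replicate 6, the largest library. These choices shared 170 to 195 transcripts with the 200 described here. With choice and CPM by TMM, the deviation was 0.135 in the median heifer (0.0888 to 0.339), against 0.313 (0.172 to 0.465) over the window.

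The mean of a few top-ranked transcripts was then compared with the mean of all 200 in the heifer left out. Over the 30 heifers the single transcript with the smallest SD deviated with an SD of 0.131, the first 5 averaged together with 0.111, the first 20 with 0.0957 and all 200 with 0.107. The largest deviation was 0.296, 0.264, 0.239 and 0.217 in the same order. No test was made between these panel sizes.

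The choice was also repeated without each stage. Transcripts chosen on the 5 other stages had a mean in the stage left out that deviated by a median of 0.0482 at CIDR+12h, 0.0737 at Oestrus+12h, 0.0737 at Luteal, 0.09 at Oestrus+48h, 0.114 at CIDR+24h and 0.127 at Oestrus. Over the window the corresponding medians were 0.135, 0.156, 0.14, 0.169, 0.248 and 0.288, so the 2 stages with the larger deviations, CIDR+24h and Oestrus, were the same in the window and in the chosen transcripts. At Oestrus, 143 of 200 (71.5%) deviated by under 0.2, against 35.5% of the window, and at CIDR+12h 197 of 200 (98.5%) against 68.3%. Between 153 and 176 of the 200 described here were chosen again. With choice and CPM by TMM, the deviation was 0.102 in the median stage (0.0577 to 0.125), against 0.172 (0.108 to 0.243) over the window.

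The members are not 200 separate measurements. Counts of 2 members were equal in all 30 heifers, and 24 of 19900 pairs had a correlation above 0.9 over heifers. When such pairs are joined, 179 groups remain, the largest with 3 members. Whether the pairs share reads, as isoforms or near-identical copies could, was not tested. The median correlation between 2 members was 0.17 (quartiles -0.02 and 0.35). Each heifer's mean deviation over the members held 16.8% of the members' variance.

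In a ratio between members the library total cancels, apart from the constant added to CPM before the logarithm. The members were chosen for a small SD on these same values, which by itself favours a small SD of their ratios. The comparisons with other transcripts that follow are therefore no independent check of the members. The log2 ratio of 2 members varied over heifers with an SD of 0.245 at the median of the 19900 pairs (quartiles 0.215 and 0.275), against 0.284 for pairs among the next 200 transcripts. Averaged over all partners, a member's ratios had an SD of 0.205 to 0.297, and 11 of the other 10440 window transcripts lay below the members' median of 0.245. ENSBTAT00000055730 had rank 4 by this measure and ENSBTAT00000014704 rank 16. Their ratio to each other had an SD of 0.164, wider than the SD of either alone.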

How the data were processed

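Polyadenylated cervical RNA of 30 heifers was sequenced as single reads, per the labels' protocols. The authors deposited raw counts per Ensembl transcript ID. CASAVA 1.0 is named in the submitters' processing notes; aligner, counter, genome build and strandedness are not given in the sources used here. Unused columns numbered 0. Without strand, antisense and overlapping transcripts cannot be told apart.

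CPM was the count times 1000000 over the file's total. SDs used log2(CPM + 1). Stage tests used edgeR 4.0.16 (filterByExpr, TMM, robust quasi-likelihood, 1 mean per stage, all 30 heifers) in R 4.3.3, with an adjusted p under 0.05 as a call; DESeq2 1.42.0 was an alternative. Fold changes are Oestrus minus Luteal, with SE from the F statistic. The counting variance was the Poisson variance by the delta method. Other values used Python 3.11.15. The fits and the choice were tested on simulated counts. The simulated transcripts were drawn independently of each other, so how the choice depends on the scaling was not covered.

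Stage came from each sample's label, and replicates were numbered in accession order. The members and lists were chosen with earlier results of these data known. Without symbols, the naming rule gave by ID the 2 smallest SDs, the most and least abundant member, ranks 200 and 201, and the 2 highest and 2 lowest differences of Oestrus from Luteal. Ranks 199 and 202 were added beside the threshold. The planned gene lists and cell type markers could not be applied. Heifers were separate animals, with 1 library each.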

Additional observations from a re-analysis of the deposited data

Results flagged for a closer look

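Of 78 sets of values of 1 stage, 7 held a heifer well apart from its neighbours by Dixon's gap-to-range ratio, where chance gives about 1 in 20 sets. For the factor from the members minus the log2 TMM factor, CIDR+12h replicate 5, whose animal number starts with 2 digits, had -0.217 while the 5 others of its stage had 0.071 to 0.158. Oestrus+48h replicate 3 had 0.294 in the same measure against 0.0379 to 0.0563. Luteal replicate 3 had a median absolute deviation over the members of 0.168, against 0.095 to 0.116 in the other Luteal heifers.

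The other 4 values are levels of named members. ENSBTAT00000018147 had 314 CPM in CIDR+12h replicate 4 against 198.9 to 240.1 CPM in the rest of its stage, and 296 CPM in Oestrus+48h replicate 4 against 197 to 219 CPM. ENSBTAT00000014704 had 266 CPM in Oestrus+12h replicate 3 against 331 to 343 CPM. ENSBTAT00000043725 had 19.1 CPM in Luteal replicate 3, the heifer named above, against 13 to 14.6 CPM.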

How the results depend on the processing

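The number of members kept, 200 by the rule, was 43 with CPM by TMM, 45 with DESeq2 size factors and 107 with the median absolute deviation in place of the SD. It was 193 with a pseudocount of 0.5, 187 with a window of 20 to under 500 CPM, 178 with the coefficient of variation, 150 with the within-stage SD and 159 when the 3 heifers with 2-digit numbers were left out. The largest SD of the chosen 200, 0.218, was 0.199 with TMM and 0.197 with DESeq2 size factors. The median ratio of observed to counting variance, 8.81, was 6.35, 6.29 and, with the narrower window, 9.99. Leaving out 1 heifer kept 170 (without Oestrus+48h replicate 4) to 195 members. The largest SD was then 0.211 (without Oestrus+48h replicate 4) to 0.220 (without CIDR+12h replicate 6). The variance ratio was 8.33 (without CIDR+24h replicate 6) to 9.34 (without CIDR+24h replicate 4).

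The median log2 difference of Oestrus from Luteal in the members, 0.113 by totals, reversed to -0.189 with TMM and -0.184 with DESeq2 size factors, scalings added here after seeing the data. TMM divides all transcripts of a heifer by the same factor, whose log2 averaged 0.239 at Oestrus and -0.0696 at Luteal. Over all 16940 transcripts the median difference went from 0.257 by totals to -0.0141 with TMM. Why the factors differed between stages was not tested. The 39 transcripts called over all in the 6-stage test were 0 without the 3 heifers with 2-digit numbers, 292 with DESeq2, and 6 (without CIDR+12h replicate 4) to 119 (without CIDR+24h replicate 4) when single heifers were left out, by over 1.5 times fewer in 18 of 30 omissions and more in 2. Between Oestrus and Luteal DESeq2 called 11 in place of 0. Members called stayed at 0 in each of these fits. Over all transcripts the main edgeR fit called 0.23% in the 6-stage test and 0.0% between Oestrus and Luteal. As members were taken for a small spread over the same heifers, nothing is read from their 0. Counting error was a larger part of the variance in the least abundant members. Even so, the variance of ENSBTAT00000043725 was 2.64 times the counting variance, with an SD of 0.211 observed and 0.13 from counting. No paired analysis was possible because the heifers were separate animals with 1 library each, and the replicate numbers pair no heifers.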
